A study of Mus musculus with 6 samples.

Results

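The translation initiation factors examined here are 42 genes that encode the factors eIF1 to eIF6, apart from Eif5a. They were taken by gene symbol from a table of 22770 gene rows, and all 42 symbols had a row. Footprints were measured by ribosome profiling, which sequences the RNA that ribosomes shield from nuclease, in round spermatids of mouse testis. The groups were 3 libraries of the genotype Wild type and 3 of the genotype Eif5a SKO, which the table's columns call cKO. The design text speaks of sorted cells from 3 mice a group, but in a passage on another assay, chromatin accessibility. The labels used here do not say what SKO stands for, which promoter drives any recombinase, the strain or the age, nor tie each library to 1 mouse, so p-values measure only the spread between these libraries. Each value is footprint density in FPKM, which the authors scaled to transcript length and to the mapped fragments of the library. Matched RNA levels were not analysed here, so a density cannot be split into the amount of mRNA and the ribosomes on each mRNA.

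Initiation places a ribosome at a start codon. The ternary complex of eIF2, GTP and initiator tRNA joins the small subunit with eIF1, eIF1A, eIF3 and eIF5, and the cap-binding assembly of eIF4E, eIF4G and the helicase eIF4A brings in the mRNA. eIF1 and eIF1A keep the scanning subunit open until a start codon is met, eIF5 triggers GTP hydrolysis by eIF2, eIF5B joins the large subunit, and eIF2B reloads eIF2 with GTP. eIF5A, the targeted factor, acts later, when ribosomes elongate through difficult stretches and terminate. Spermatids keep many mRNAs silent for days before they are translated, and initiation is a main point of that control.

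Eif5a itself had 34.2, 48.8 and 61.9 FPKM across wild type against 1.84, 1.93 and 2.99 FPKM across SKO, which checks the labels. Protein-coding rows held between 18.2% and 32.9% of the summed FPKM of a library, so the scale of every member depends on what the remaining rows took. From the spacing of the low values, relative depth was 0.787, 0.760 and 0.631 for wild-type replicates 1, 2 and 3 and 1, 0.503 and 0.771 for the SKO replicates, while absolute depth is unknown. All 11 round spermatid markers on a fixed list were in the table, and Acrv1, an acrosomal gene of round spermatids, lay between 287 and 875 FPKM. Of these 11, 6 separated between the groups and all 6 were higher in SKO, namely Spaca1, Spaca3, Spaca7, Tex101, Tssk1 and Izumo1, with SKO means between 1.66 and 2.93 times those of wild type. Over all tested rows 15.7% separated, and 10.9% were higher in SKO. The groups overlapped for Acrv1, Catsper3, Tssk2, Acr and Crem, at 1.56, 2.20, 1.52, 1.07 and 0.978 times wild type. Of the 11 markers, 0 passed the test between genotypes used below. Somatic testis cell markers differed too. The summed level of the 4 listed Sertoli cell markers ran from 8.85 to 18.9 FPKM in wild type and from 48.7 to 71.1 FPKM in SKO, with 6 further markers of that list, Sox9 and Wt1 among them, having no row. The 7 listed Leydig cell markers summed to between 13.6 and 18.6 FPKM in wild type and between 61.2 and 118 FPKM in SKO, and 4 peritubular and connective tissue markers to between 4.54 and 6.19 FPKM and between 25.8 and 39.2 FPKM. Of these markers, 3 Sertoli, 5 Leydig and all 4 peritubular and connective ones separated, all higher in SKO, while Dhh, Star and Lhcgr overlapped. Clu and Ctsl held most of the Sertoli sum, at SKO means of 27.7 and 28.0 FPKM. Aard and Dhh had 2.25 and 1.12 FPKM. Only Dcn among them passed the test used below (limma adjusted p = 0.0470). Hsd17b3, Col1a1 and Col1a2 had no row. Summed round spermatid markers ran from 780 to 1425 FPKM and from 1107 to 2317 FPKM, spermatocyte markers from 72.3 to 123 FPKM and from 82.1 to 129.9 FPKM, late spermatid markers from 71.4 to 128 FPKM and from 76.7 to 107 FPKM, and the 4 listed spermatogonia markers from 11.7 to 12.6 FPKM and from 12.9 to 19.6 FPKM. The 4 red cell globin genes went the other way, from 50.4 to 110 FPKM in wild type and from 15.2 to 42.02 FPKM in SKO, and the 3 listed macrophage and endothelial markers ran from 1.57 to 6.76 FPKM and from 2.62 to 5.26 FPKM. Initiation factors are made in all of these cells, and the part of other cells in the values below was not tested. In these bulk samples fewer cells of a type and less RNA per cell cannot be told apart.

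No initiation factor passed the test between genotypes. Of the 42 members, 40 had a mean of at least 1 FPKM and were tested with limma on log2(FPKM + 1), and 0 had an adjusted p under 0.05 (smallest 0.206), against 0.128% of all 15578 tested rows. At an unadjusted p under 0.05 there were 2 members, Eif1 and Eif1ax, a smaller share than the 10.98% of all tested rows. The members' median log2 fold change was 0.04, beside 0.13 for all tested rows, and 17 of the 40 lay above that median. With TMM-type scaling, which takes a trimmed mean of log ratios as the factor of a library, 0 members passed (smallest adjusted p 0.114), against 1.02% of all rows, and 8 had an unadjusted p under 0.05, beside 15.6% of all rows. The scaling moved the median of all tested rows from 0.13 to 0.0028 and that of the members to -0.11. Together the 42 genes took 0.694%, 0.756% and 0.747% of the protein-coding FPKM in wild type, against 0.670%, 0.712% and 0.710% in SKO. The groups overlap in that share, at 0.733% ± 0.033 and 0.697% ± 0.024 (SD, n = 3).

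**Figure D1:**
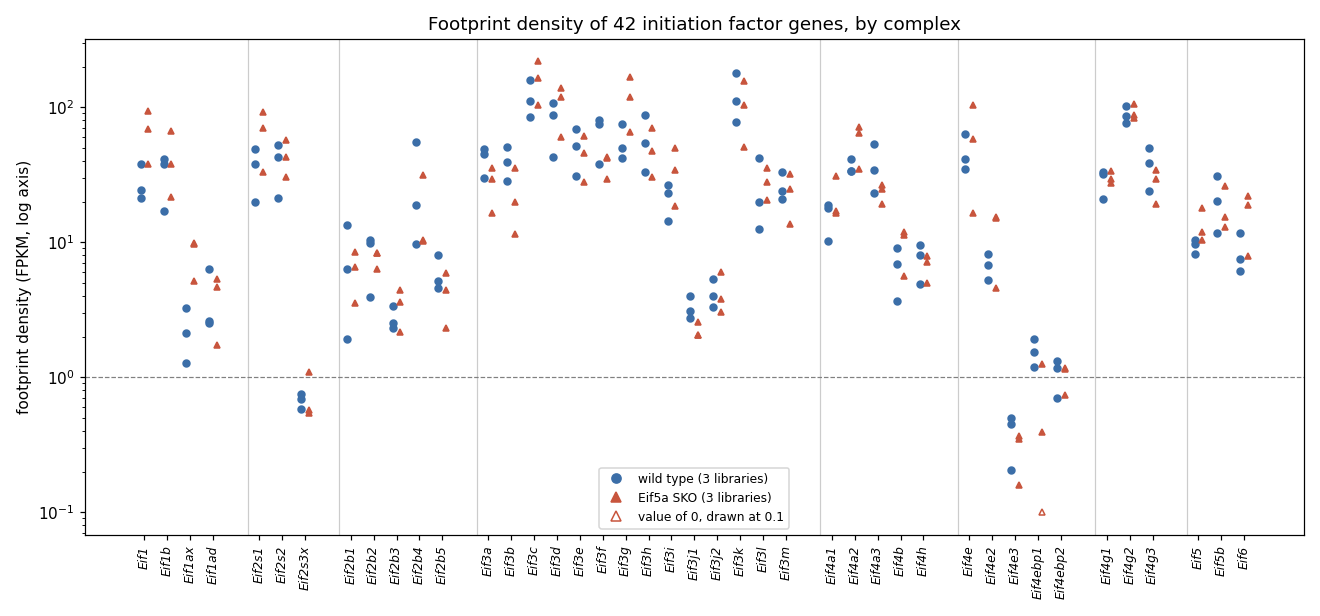
Footprint density in FPKM (log axis) of all 42 genes in each of the 6 libraries, with complexes parted by vertical lines the dashed line at 1 FPKM and an open triangle, drawn at 0.1, for the value of 0 on Eif4ebp1. Eif3c and Eif3k stand highest in eIF3 and Eif3j1 and Eif3j2 lowest, Eif2s3x and Eif4e3 lie below the line on average, and the SKO points clear the wild-type points on Eif1, Eif1ax and Eif5 above and on Eif3j1 below.

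With the deposited values the 3 SKO libraries lay all above or all below the 3 wild-type libraries for 4 of the 40 tested members, while 15.7% of all tested rows did so. Eif1, Eif1ax and Eif5 were the higher ones and Eif3j1 the lower one. With these values the members' share, 10%, was below that of the whole table. Under TMM-type scaling, 11 of the 40 (27.5%) separated, against 21.5% of all rows, so the order of these shares depends on the scaling. Of these, 3 were higher in SKO, namely Eif1, Eif1ax and Eif3g, against 11.6% of all rows, and 8 were lower, namely Eif2b5, Eif3a, Eif3b, Eif3f, Eif3j1, Eif3m, Eif4a3 and Eif4g3, against 9.85% of all rows.

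**Figure D2:**
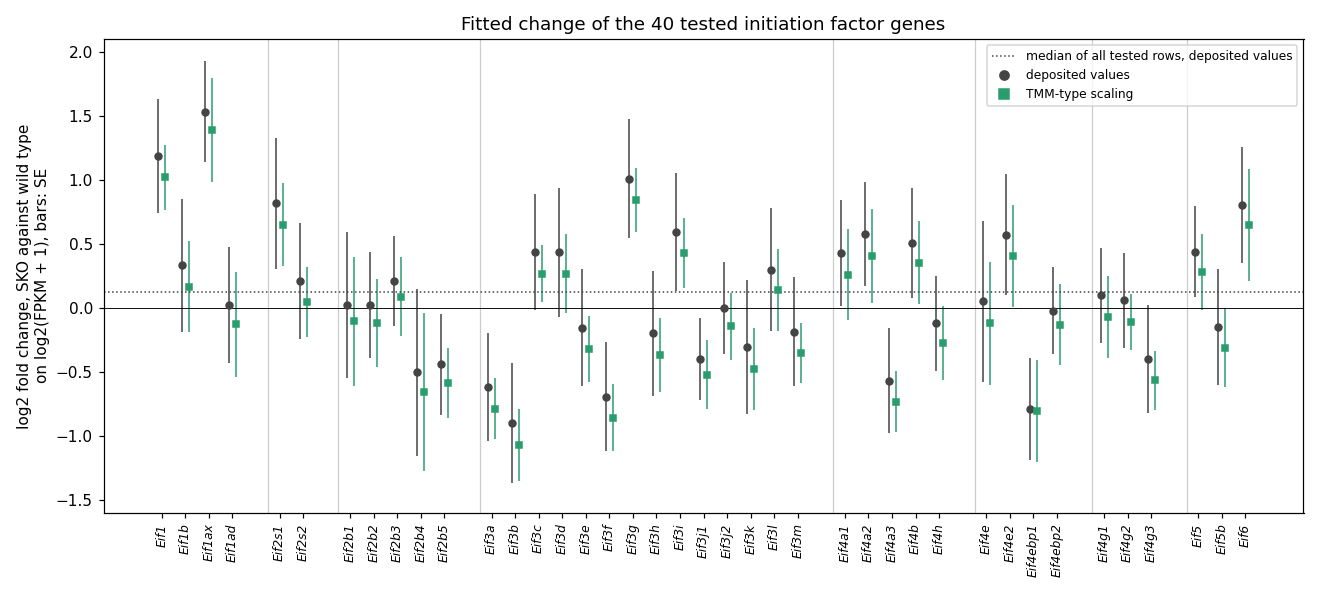
Fitted log2 fold change of the 40 tested genes, SKO against wild type, on the log2(FPKM + 1) scale, with SE bars from limma, for the deposited values (circles) and after TMM-type scaling (squares). The dotted line is the median of all tested rows with the deposited values, 0.13; Eif1ax at 1.53 and Eif3b at -0.90 mark the ends of the range.

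The scanning factors held the 2 members with the smallest p. Eif1 encodes eIF1, which guards the choice of start codon (gene 20918, GRCm38 chromosome 11, 100319949 to 100322099). It had 24.4, 21.3 and 37.7 FPKM in wild type against 38.3, 93.0 and 68.9 FPKM in SKO, so the lowest SKO library lay just above the highest wild-type library. The means were 27.8 ± 8.70 and 66.7 ± 27.5 FPKM (SD, n = 3), with a log2 fold change of 1.19 (SE 0.45, limma adjusted p = 0.374), or 1.02 (SE 0.25, adjusted p = 0.114) under TMM-type scaling. With the summed protein-coding FPKM of the libraries made equal, a setting in which 3.31% of all rows passed, Eif1 passed narrowly (log2 fold change 0.96, limma adjusted p = 0.0483). The pseudogene rows Eif1-ps1 and Eif1-ps2 carried almost the same pattern. Eif1-ps1 had 21.6, 22.7 and 31.4 FPKM in wild type against 36.7, 93.1 and 70.3 FPKM in SKO, and Eif1-ps2 ran from 10.4 to 16.5 FPKM and from 20.3 to 60.6 FPKM. How reads that match several places were counted is not given in the sources used here, so the share of these footprints that belongs to Eif1 is uncertain.

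Eif1ax encodes eIF1A from the X chromosome (gene 66235, X, 159372178 to 159389621), the partner of eIF1 on the scanning subunit. Its density was 2.12, 3.25 and 1.26 FPKM in wild type against 9.93, 9.76 and 5.16 FPKM in SKO. All 3 SKO libraries were above all 3 wild-type libraries, and the mean was 3.74 times as high, at 8.28 ± 2.71 against 2.21 ± 0.997 FPKM (SD, n = 3). The log2 fold change was 1.53 (SE 0.39, limma adjusted p = 0.206), the largest among the members, and 1.39 (adjusted p = 0.159) under TMM-type scaling. The 363 tested protein-coding rows of the X chromosome had a median log2 fold change of 0.77, beside 0.10 for 10720 autosomal ones, and Eif1ax is 1 of them. The related autosomal row Eif1a had 6.53, 5.20 and 8.46 FPKM in wild type against 4.39, 13.4 and 6.83 FPKM in SKO, with overlap. Eif1b, a close relative of Eif1, had 32.3 ± 13.3 and 42.2 ± 23.1 FPKM, and Eif1ad, which encodes a protein with an eIF1A-type domain, 3.83 ± 2.19 and 3.91 ± 1.91 FPKM, both with overlapping groups (SD, n = 3).

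The eIF2 genes showed an uneven use of the X and Y copies of the gamma subunit. eIF2 has an alpha subunit, the site of regulatory phosphorylation (Eif2s1), a beta subunit (Eif2s2) and a gamma subunit that binds GTP and the initiator tRNA (Eif2s3x on the X chromosome and Eif2s3y on the Y chromosome). Eif2s3x had 0.584, 0.7501 and 0.686 FPKM in wild type against 1.09, 0.567 and 0.540 FPKM in SKO, below the limit for testing in the mean. Eif2s3y, which is not among the 42 members, had 18.0, 57.5 and 44.0 FPKM and 27.1, 51.7 and 52.1 FPKM. In every library the X copy thus had between 0.0104 and 0.0403 times the density of the Y copy, and the 2 groups overlapped in that ratio (log2 difference -0.17, exact permutation p = 0.7, two-sided). The pseudogene row Eif2s3x-ps1 lay between 0.0633 and 1.31 FPKM. Reads shared between the copies would be assigned by a rule that is not known here.

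Eif2s3y density was nearer to that of the other eIF2 subunits than Eif2s3x density was. Eif2s1 had 19.7, 38.0 and 49.3 FPKM in wild type against 33.0, 91.5 and 69.6 FPKM in SKO, and Eif2s2 21.2, 42.6 and 52.3 FPKM and 30.5, 56.9 and 42.8 FPKM. Neither passed (log2 fold change 0.82, SE 0.51, and 0.21, SE 0.46, limma adjusted p = 0.602 and 0.910). The ratio of Eif2s1 to Eif2s2 inside a library, chosen after the values were seen, was 0.932, 0.891 and 0.944 in wild type against 1.08, 1.61 and 1.63 in SKO. These ranges do not overlap (exact permutation p = 0.1, two-sided, the smallest that 20 assignments of 3 against 3 allow). The ratio of Eif2s3y to Eif2s1, chosen likewise, was 0.914, 1.51 and 0.891 in wild type against 0.823, 0.565 and 0.748 in SKO. It was lower in SKO without overlap (exact permutation p = 0.1, two-sided).

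eIF2B, the exchange factor of eIF2, was less dense than eIF2 and varied widely. Eif2b4, the delta subunit, had the highest mean of the 5 subunits, at 18.8, 9.63 and 54.9 FPKM in wild type against 10.4, 10.2 and 31.3 FPKM in SKO. The libraries of each group were far apart and the groups overlap. Eif2b3, the gamma subunit, was the least dense, at 2.74 ± 0.570 and 3.41 ± 1.15 FPKM (SD, n = 3). Eif2b1 and Eif2b2, the alpha and beta subunits, had 7.21 ± 5.82 and 8.03 ± 3.58 FPKM in wild type against 6.17 ± 2.47 and 7.64 ± 1.14 FPKM in SKO. Eif2b5, the catalytic epsilon subunit, had 4.54, 5.16 and 8.05 FPKM in wild type against 2.33, 5.87 and 4.40 FPKM in SKO, and its groups overlapped as deposited and separated after TMM-type scaling (log2 fold change -0.59, limma adjusted p = 0.356), as they did with equal protein-coding sums and quantile normalization. The fitted changes of the 5 ran from -0.50 to 0.21.

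eIF3, the largest initiation factor, is a scaffold on the small subunit. Its core is built from subunits a, c, e, f, h, k, l and m, to which b, g and i are attached as a module of their own, with d at the edge and j bound loosely. The 14 genes spanned a wide range of density. Over all 6 libraries Eif3c was the densest, above 97.8% of tested rows, with 118 ± 37.8 FPKM in wild type against 162 ± 57.5 FPKM in SKO (SD, n = 3). Eif3k came next at 123 ± 52.8 and 103 ± 52.3 FPKM (SD, n = 3), and was the denser of the pair in the wild-type mean. Eif3j1 and Eif3j2, the paired genes of the j subunit, were the least dense at 3.28 ± 0.650 and 4.21 ± 1.01 FPKM in wild type. FPKM divides by transcript length while footprints fall on coding sequence, so an order between genes also reflects the length of their untranslated ends.

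The median log2 fold change of the eIF3 genes was -0.17, which is 0.30 below that of all tested rows (difference -0.30), and 5 of the 14 were above 0. With TMM-type scaling the median was -0.34. The direction differed between subunits. Eif3g, an RNA-binding subunit, had 42.4, 49.5 and 75.5 FPKM in wild type against 65.9, 168 and 119.9 FPKM in SKO (gene 53356, chromosome 9, 20894349 to 20898590). SKO replicate 1, at 65.9 FPKM, lay inside the wild-type range. The log2 fold change was 1.01 (SE 0.47, limma adjusted p = 0.466), and 0.84 (SE 0.25, adjusted p = 0.162) under TMM-type scaling, where the groups separated.

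Eif3b, the scaffold that holds g and i, lay on the other side (gene 27979, chromosome 5, 140419305 to 140443358). It had 28.6, 39.6 and 50.7 FPKM in wild type against 11.5, 35.4 and 19.9 FPKM in SKO, and SKO replicate 2 lay inside the wild-type range. The log2 fold change was -0.90 (SE 0.47, limma adjusted p = 0.523), the lowest among the members, and -1.07 (SE 0.28, adjusted p = 0.127) under TMM-type scaling. Eif3b passed in 2 alternatives, with equal protein-coding sums (-1.14, limma adjusted p = 0.0342) and after quantile normalization (-1.17, limma adjusted p = 0.0449), in which 3.31% and 2.86% of all rows passed.

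Relative to other eIF3 genes of the same library, Eif3g and Eif3i stood higher in SKO and Eif3b lower, without overlap between the groups. Each gene was set against the median of the 14 eIF3 genes in its library, which was decided on once values were known and in which any scaling of whole libraries cancels. On this log2 scale Eif3g stood at 0.47, 0.0048 and 0.36 in wild type against at 1.45, 1.86 and 1.66 in SKO. Eif3i, the beta-propeller subunit of the same module, stood at -1.09, -1.09 and -1.14 in wild type against at -0.38, 0.11 and -0.14 in SKO. Eif3b stood at -0.09, -0.32 and -0.22 and at -1.06, -0.39 and -0.93. Eif3g and Eif3i were thus higher against their complex in every SKO library. Eif3b was lower, with a narrow gap between wild-type replicate 2 at -0.32 and SKO replicate 2 at -0.39.

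The ratio of Eif3g to Eif3b within a library was 1.48, 1.25 and 1.49 in wild type against 5.71, 4.74 and 6.03 in SKO. This 3.90-fold difference (log2 1.96) was the largest among the 91 pairs of eIF3 genes, and both groups were tight (SD 0.14 and 0.18 on the log2 scale, n = 3). Eif3i against Eif3b gave 0.502, 0.586 and 0.526 in wild type against 1.61, 1.42 and 1.73 in SKO. Both ratios were chosen after the values were seen. Each of these ratios had an exact permutation p of 0.1 (two-sided), the smallest possible, and over the 91 pairs the smallest Benjamini-Hochberg adjusted value of the exact permutation test was 0.186. In all, 49 of the 91 pairs (53.8%) did not overlap between the groups, and Eif3g separated from 12 of its 13 partners. Among all pairs of the 14272 tested rows that hold no 0, 20.9% did not overlap, and among pairs of 39 members 23.8%. Pairs share genes, and most eIF3 genes are denser than the typical row, whose part in this share was not tested.

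**Figure D3:**
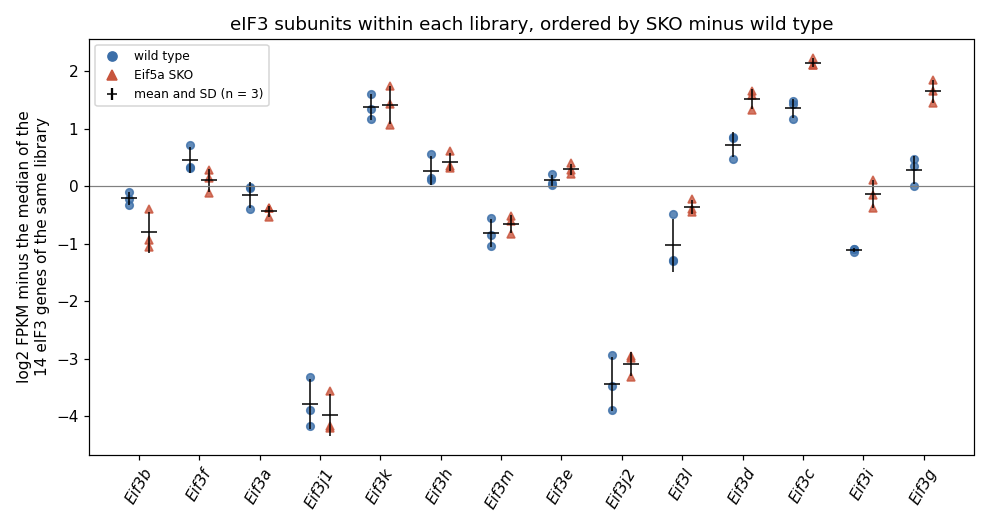
Log2 FPKM of each eIF3 gene minus the median of the 14 eIF3 genes of the same library, for 3 wild-type (circles) and 3 SKO libraries (triangles), with the mean and SD, ordered by SKO minus wild type. Eif3b is at the left end with a difference of -0.59 and Eif3g at the right end with 1.38.

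Eif3c and Eif3d also stood higher against the complex median in SKO. Eif3c, at 1.48, 1.16 and 1.43 in wild type against 2.11, 2.24 and 2.12 in SKO on the log2 scale, is a structural core subunit. Eif3d, which can bind the mRNA cap, stood at 0.49, 0.84 and 0.86 and at 1.32, 1.59 and 1.65. Eif3l was higher as well, with a narrow gap (highest wild-type library -0.49, lowest SKO library -0.44), and Eif3e by a trivial one. Eif3f, a core subunit with an MPN domain, was lower, also with a narrow gap, at 0.32, 0.71 and 0.34 in wild type against 0.28, -0.11 and 0.14 in SKO. Counting these, 6 of the 14 genes were higher, 2 lower and 6 overlapped. On the same scale 27.7% of all tested rows were higher without overlap and 2.52% lower.

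When the whole table was divided by the eIF3 median of each library and refitted, 6 of 40 members had a limma adjusted p under 0.05, against 10.4% of all tested rows, and the median log2 fold change of all rows was 0.38. The 6 were Eif3g (log2 fold change 1.36, adjusted p = 0.00664), Eif1 (1.53, adjusted p = 0.00981), Eif2s1 (1.16, adjusted p = 0.0129), Eif3c (0.79, adjusted p = 0.0190), Eif3i (0.93, adjusted p = 0.0204) and Eif3d (0.79, adjusted p = 0.0313, limma throughout). All 6 were higher in SKO. In this setting 14 of the 40 members did not overlap between groups, against 30.2% of all rows. The typical row thus lay at 0.38 against eIF3, which is the base for reading these 6 values. Eif3g, Eif3c, Eif3i and Eif3d are themselves among the genes whose median set this scale. The scaling was also chosen after values were seen, so these adjusted p-values are a description only.

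None of the other subunits passed either. Eif3a, the largest subunit, had 30.01, 49.2 and 44.7 FPKM in wild type against 16.5, 35.8 and 29.4 FPKM in SKO (log2 fold change -0.62, SE 0.42, limma adjusted p = 0.628, or -0.79 and adjusted p = 0.172 under TMM-type scaling). Eif3f had 38.0, 80.8 and 74.5 FPKM and 29.3, 42.8 and 42.01 FPKM (-0.69, SE 0.43, limma adjusted p = 0.594). The SKO libraries were thus low on both genes, with SKO replicate 1 the lowest and some overlap. Eif3e, Eif3h and Eif3m had SKO means 0.895, 0.851 and 0.910 times those of wild type, and Eif3l, whose wild-type libraries ran from 12.5 to 42.1 FPKM, 1.12 times. Footprints on Eif3e, once named Eif3s6, can be shared with 4 pseudogene rows that carry the old name, whose wild-type means ran from 5.92 to 24.1 FPKM. Eif3j1 had 3.07, 2.75 and 4.00 FPKM in wild type against 2.05, 2.58 and 2.06 FPKM in SKO, a small separation (log2 fold change -0.40, SE 0.32, limma adjusted p = 0.684). Eif3j2 did not separate, at 3.98, 3.34 and 5.31 FPKM and 3.05, 5.98 and 3.81 FPKM.

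Start-site sequences are shown for Eif3f and Eif2s3x, where the motif searched begins at the annotated first base, and for 4 members whose values differed most. They are shown because 5′ terminal oligopyrimidine tracts, a cytidine at the cap followed by pyrimidines, are known to tune the translation of many translation factor mRNAs. Each line gives 30 bases, from 10 before the annotated start to the 20 that begin with it, read in the direction of the gene from RefSeq on GRCm38.p6. Capitals mark a C followed by at least 4 bases that are C or T, beginning within 5 bases of the annotated start, searched on the strand of the gene.
Eif3f, chr7:108934405-108934434, plus strand: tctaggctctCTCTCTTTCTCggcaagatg
Eif2s3x, chrX:94212632-94212661, minus strand: gagcattttcCTTTTCTCTCCgagcaagat
Eif3b, chr5:140419295-140419324, plus strand: ggcgcgcggtgaCTTCTgggagtcggaagc
Eif3g, chr9:20898571-20898600, minus strand: acccgggctgggagctgcgtggagttaaga
Eif1, chr11:100319939-100319968, plus strand: ggcgtcacaggggcggctatataagtgaat
Eif1ax, chrX:159372168-159372197, plus strand: ggaggagggcggggagaagccccgcccgct

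Eif3f and Eif2s3x carry a tract of 11 bases that starts at the annotated first base, and Eif3b a shorter one of 5 bases that starts 2 bases further in. Eif3g, Eif1 and Eif1ax, whose mean densities were higher in SKO, have no such run in this window. Neither do Eif3a, Eif3j1, Eif3m, Eif4a3 and Eif4g3, whose mean densities were lower in SKO. Eif2b5, also lower in SKO, carries a tract of 6 bases that starts within 5 bases of the annotated start. Eif1ad, Eif2b2, Eif3l and Eif4g1 carry tracts of 5, 8, 5 and 6 bases there. Their SKO means were 1.02, 0.951, 1.12 and 1.05 times those of wild type. RefSeq start windows were found for 33 of the 42 members. A tract at the first base was present in 2 of the 33, or 6.06%, against 3.01% of 27025 genes, and one within 5 bases in 8, or 24.2%, against 21.2% of all genes. The 7 tested members with a tract within 5 bases had a median log2 fold change of 0.02 and the 25 without one a median of 0.21. Annotated starts may differ from those used in spermatids, and a match in these letters is a description of the window.

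The helicase eIF4A unwinds mRNA with the help of eIF4B and eIF4H. Eif4a2 was denser than Eif4a1 in every library, at 41.6, 33.7 and 33.9 FPKM in wild type against 71.0, 64.3 and 35.1 FPKM in SKO. Eif4a1 had 18.8, 18.0 and 10.1 FPKM and 16.5, 31.0 and 17.1 FPKM. The ratio of Eif4a1 to Eif4a2 ran from 0.299 to 0.532 in wild type and from 0.232 to 0.486 in SKO, so the balance of the 2 paralogues did not separate the genotypes (exact permutation p = 0.7, two-sided). Eif4a3, which anchors the exon junction complex rather than initiating translation, had 23.3, 34.4 and 53.7 FPKM in wild type against 19.3, 26.5 and 24.8 FPKM in SKO. It did not pass (log2 fold change -0.57, SE 0.41, limma adjusted p = 0.651), and under TMM-type scaling its groups separated at -0.73 (adjusted p = 0.200). The helper genes Eif4b and Eif4h were less dense, at 6.55 ± 2.68 and 7.47 ± 2.34 FPKM in wild type against 9.65 ± 3.48 and 6.67 ± 1.52 FPKM in SKO (SD, n = 3).

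Among cap-binding genes, Eif4e had the widest spread. It encodes the cap-binding protein of general initiation, and it had 41.0, 34.9 and 63.4 FPKM in wild type against 16.4, 104 and 57.9 FPKM in SKO, so that the SKO libraries held both the lowest and the highest value. Eif4e2, a cap-binding relative used in repression, had 8.22, 6.74 and 5.25 FPKM and 4.56, 15.2 and 15.3 FPKM. The ratio of Eif4e to Eif4e2 ran from 4.99 to 12.1 in wild type and from 3.60 to 6.87 in SKO (exact permutation p = 0.4, two-sided). Eif4e3 lay between 0.1602 and 0.496 FPKM and was not tested.

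The repressors that compete with eIF4G for eIF4E had low footprint densities. Eif4ebp1 had 1.54, 1.20 and 1.92 FPKM in wild type against 1.25, 0 and 0.393 FPKM in SKO (log2 fold change -0.79, SE 0.40, limma adjusted p = 0.507). Eif4ebp2 had 1.32, 1.17 and 0.705 FPKM and 0.742, 1.18 and 1.15 FPKM. After correction for relative depth, the Eif4ebp2 values stood in the whole-number proportion of 7, 6 and 3 to 5, 4 and 6 within 3%. The same search, up to 12 steps, found none for Eif4ebp1, Eif4e3, Eif2s3x, Eif1ax, Eif1ad, Eif3j1, Eif3j2, Eif2b3 and Eif2d. A match on this gene alone does not give a number of reads. Eif4ebp1 was denser than 2.04% of tested rows and Eif4ebp2 than 1.81%. At such low values differences on either gene may not be resolved, and their numbers of reads are unknown.

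eIF4G, the scaffold between the cap and the small subunit, had 3 genes among the members. Eif4g2, which encodes a shorter relative that does not bind eIF4E, was the densest of the 3 at 77.0, 86.2 and 101 FPKM in wild type against 83.1, 87.2 and 105 FPKM in SKO. The groups interleave, with a log2 fold change of 0.06 (SE 0.37, limma adjusted p = 0.977). Eif4g1 had 31.8, 33.2 and 20.7 FPKM and 27.4, 29.3 and 33.7 FPKM. Eif4g3 had 24.0, 38.6 and 49.6 FPKM and 19.1, 34.5 and 29.5 FPKM (log2 fold change -0.40, SE 0.42, limma adjusted p = 0.776), and separated under TMM-type scaling (-0.56, limma adjusted p = 0.295), as it did with equal sums, equal protein-coding sums and quantile normalization. Inside a library Eif4g1 had between 0.205 and 0.413 times the density of Eif4g2 in wild type and between 0.321 and 0.336 times in SKO. The ratio of Eif4g1 to Eif4g3, from 0.418 to 1.33 and from 0.850 to 1.43, overlapped too (exact permutation p = 0.5, two-sided).

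**Figure D4:**
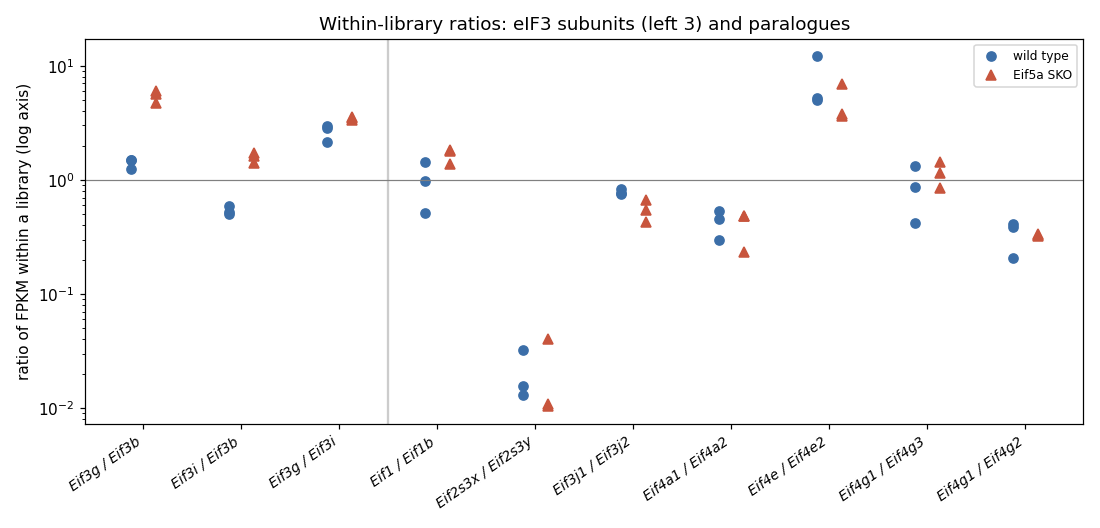
Ratio of FPKM of 2 genes within each library (log axis) for 3 wild-type (circles) and 3 SKO libraries (triangles), with pairs of eIF3 subunits left of the line and 7 paralogue pairs right of it. The groups are apart for the 3 pairs of eIF3 subunits, which were chosen after the values were seen, and for Eif3j1 against Eif3j2. They overlap for the other 6 paralogue pairs, and all 7 paralogue pairs were planned.

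Of the 8 paralogue pairs planned, 7 could be compared, since Eif4ebp1 was listed at 0 in 1 library. Only Eif3j1 against Eif3j2 separated among the 7, at 0.773, 0.824 and 0.754 in wild type against 0.670, 0.431 and 0.541 in SKO (log2 difference -0.54, exact permutation p = 0.1, two-sided, and 0.7 after Benjamini-Hochberg adjustment). The pair encodes the same subunit, and reads can be shared between them. Eif1 against Eif1b gave 1.43, 0.514 and 0.985 in wild type against 1.78, 1.39 and 1.81 in SKO, with wild-type replicate 1 inside the SKO range (exact permutation p = 0.2, two-sided).

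The factors of subunit joining were intermediate in density. Eif5, the GTPase activator of eIF2, had 9.68, 10.3 and 8.23 FPKM in wild type against 10.3, 11.9 and 18.0 FPKM in SKO. The groups touch, and the log2 fold change was 0.44 (SE 0.36, limma adjusted p = 0.691). Eif5b, the GTPase that joins the large subunit, had 20.9 ± 9.61 and 18.2 ± 7.09 FPKM (SD, n = 3). Eif6, which keeps free large subunits from joining too early, had 7.49, 11.7 and 6.10 FPKM in wild type against 18.8, 22.0 and 7.96 FPKM in SKO. In 2 of the 3 SKO libraries it was above every wild-type library, and it did not pass (log2 fold change 0.80, SE 0.45, limma adjusted p = 0.557).

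Among other genes of initiation, 28 were on a list fixed for comparison, 26 had a row and were tested, and 0 passed in either direction, with the deposited values or under TMM-type scaling (limma, smallest adjusted p 0.318 and 0.0623). At an unadjusted p under 0.05 there were 2 and 3. Their median log2 fold change was 0.14, close to that of all tested rows. With the deposited values 2 of the 26 separated, both higher in SKO, a smaller share than the 15.7% of all rows. Paip2, which encodes an inhibitor of the poly(A)-binding protein, had 21.8, 24.5 and 37.6 FPKM in wild type against 48.9, 92.2 and 63.9 FPKM in SKO (log2 fold change 1.25, SE 0.41, limma adjusted p = 0.318). It passed with equal protein-coding sums (1.02, limma adjusted p = 0.0179) and after quantile normalization (0.99, limma adjusted p = 0.0243). Ddx3x, an X-linked helicase gene that aids scanning, had 1.74, 3.03 and 3.51 FPKM and 4.16, 9.79 and 8.30 FPKM (1.13, SE 0.40, limma adjusted p = 0.336). Its Y-linked relative Ddx3y had 0.910 ± 0.855 and 1.12 ± 0.307 FPKM and its autosomal relative D1Pas1 6.63 ± 1.85 and 5.14 ± 2.15 FPKM (SD, n = 3). The kinases that phosphorylate eIF2 were sparse, and the 3 with a row, Eif2ak1, Eif2ak2 and Eif2ak4, had wild-type means of 2.27, 1.75 and 1.31 FPKM and SKO means of 2.12, 1.96 and 0.979 FPKM.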

How the data were processed

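The authors deposited FPKM for each gene symbol. Per the submitters' processing notes, mm10 was the build, and STAR, Bowtie2, Cufflinks and cutadapt were used, in roles that are unstated. Neither the annotation nor the treatment of ribosomal or repeated reads is given in the sources used here. Columns called cKO were matched to the SKO samples by replicate number. Rows averaging 1 FPKM or more were fitted on log2(FPKM + 1) with limma 3.58.1 in R 4.3.3 (trended eBayes, two-sided). P-values were Benjamini-Hochberg adjusted over 15578 rows at a threshold of 0.05. Fold changes on this scale understate changes of low genes. TMM-type factors trimmed 0.3 of log ratios and 0.05 of levels at each end and ran from 0.812 to 1.31. The fit was tested on simulated data in which 200 rows were changed by more than any member here. Spread was capped and the libraries had equal scale, so power for these members was not measured. The members and lists were chosen with earlier results of these data known. By rule, members were named by level in their complex, with a fold change for those past the threshold or with groups that do not overlap. Other folds were added after values were seen. Planned comparisons of protein sequence were not run. Symbols, coordinates and start windows come from RefSeq GRCm38.p6.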

Additional observations from a re-analysis of the deposited data

How the results depend on the processing

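No setting with the deposited scale brought a member past the test. The count of members past it was 0 with the deposited values and moved to 1 after quantile normalization, 2 with equal protein-coding sums and 6 with scaling to the eIF3 median, the last chosen after seeing the data. Rows called over the whole table, 20 as deposited, went to 4 with a pseudocount of 5, 5 with no filter, 86 with a mean of at least 5 FPKM, 159 under TMM-type scaling, 446 after quantile normalization, 516 with equal protein-coding sums, 63 with robust eBayes and 1621 with scaling to the eIF3 median, and ran from 4 to 31 with 1 library left out (6, 10 and 4 without wild-type replicates 1, 2 and 3, and 17, 31 and 13 without SKO replicates 1, 2 and 3). Members whose groups do not overlap went from 4 (15.7% of all tested rows) to 11 under TMM-type scaling (21.5% of rows), 8 with equal sums (17.4%), 16 after quantile normalization (23.4%), 15 with equal protein-coding sums (23.1%) and 14 with scaling to the eIF3 median (30.2%), and ran from 6 to 12 with 1 library left out (11, 7 and 6 without wild-type replicates 1, 2 and 3, and 12, 7 and 7 without those of SKO, beside 22.8% to 32.8% of rows), where fewer samples separate more easily. The cause of the other moves was not tested. As a share of the 40 tested members, these counts were 10% as deposited, below that of all rows. They were above it in the other scalings, at 27.5% under TMM-type scaling, 20% with equal sums and 40% after quantile normalization. With equal protein-coding sums the share was 37.5% and with the eIF3 median 35%. With 1 library left out it was above that of rows only without wild-type replicate 1 (28.9% against 25.6%). The members' median relative to all rows kept within the spread between libraries, from -0.13 to 0.001. With the replicate number as a block, 5 rows passed as deposited and 4 under TMM-type scaling, and 0 members. Deviations of same-numbered libraries from their group means correlated at 0.0926, 0.000158 and 0.0243. These values cannot decide whether such libraries shared a batch, since libraries of different numbers were not compared. Refits covered 18 of the genes given with fold changes, and Eif2s2, Eif4ebp1, Eif4g2 and Eif6 were not among them. Over these 18, 3 of 449 refits changed sign. Eif3m reached 0.15 with scaling to the eIF3 median and ran from -0.44 to 0.15 with 1 library left out as deposited (0.15 without SKO replicate 1) and from -0.49 to -0.17 under TMM-type scaling. Eif3d reached -0.018 without wild-type replicate 1 under TMM-type scaling, where it ran up to 0.47, and from 0.04 to 0.80 as deposited. Leaving out 1 library moved the log2 fold change of 11 of the 18 genes by over 1.5 times, through wild-type replicates 1 and 3 and SKO replicates 1 and 2, and for Eif5 through SKO replicate 3. Eif2b5 ran from -0.67 to -0.15, Eif3a from -0.84 to -0.31, Eif3b from -1.29 to -0.52, Eif4a3 from -0.85 to -0.27, Eif4g3 from -0.68 to -0.16, Eif5 from 0.22 to 0.59, Eif3c from 0.19 to 0.73, Eif3i from 0.27 to 0.97 and Eif2s1 from 0.45 to 1.23. With 1 library left out, the log2 difference of the ratio Eif2s3x to Eif2s3y ran from -0.81 to 0.22, that of Eif4a1 to Eif4a2 from -0.37 to 0.22 and that of Eif4g1 to Eif4g2 from -0.28 to 0.23. Eif2s3x, Eif4e3, Eif4ebp1 and Eif4ebp2 had low densities, and their numbers of reads are unknown.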
